A study of Rattus norvegicus with 12 samples.

Results

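The surfactant and alveolar type 2 genes are 9 genes chosen by symbol, namely Sftpa1, Sftpb, Sftpc, Sftpd, Abca3, Lamp3, Napsa, Slc34a2 and Lpcat1. A probe on the array was assigned to one of them when its RefSeq accession mapped to the symbol, and the most intense detected probe stood for the gene. Of the 9 genes, 8 had a probe, 1 each, and all 8 probes were well above background on all 12 arrays. Abca3, the lipid transporter of the lamellar body, matched no probe and was not analysed here. The 8 genes stand among 11146 named genes with a detected probe. RNA came from the left upper lobe of the lungs of male Sprague-Dawley rats aged 8 to 12 weeks, with 3 replicate arrays in each of 4 groups. Control rats were exposed to neither smoke nor LPS and had air or saline in their place. The CS+LPS rats breathed cigarette smoke (CS) until day 30 and received lipopolysaccharide (LPS), a component of bacterial walls, into the trachea on days 5 and 19. The CS+LPS+NaHS rats were given in addition NaHS, a donor of hydrogen sulfide, and the CS+LPS+PPG rats propargylglycine, an inhibitor of the enzyme that forms hydrogen sulfide (cystathionine-γ-lyase), by intraperitoneal injection before each exposure. Lungs were taken 24 h after the last smoke exposure, and the regimen served as a model of chronic obstructive pulmonary disease. The question set by the design was how exposure, and either agent on top of it, changed gene expression in the lung.

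Alveolar type 2 cells make surfactant, the film of lipid and protein that lowers surface tension in the air spaces. They store it in lamellar bodies, release it, and take much of it back, while alveolar macrophages clear the rest. Sftpb and Sftpc encode the small hydrophobic proteins that spread the film, and Sftpa1 and Sftpd encode collectins, lectins that bind microbes and inhaled particles. Lamp3 and Abca3 proteins sit in the membrane of the lamellar body, Napsa encodes an aspartic protease that helps to process proSP-B, Slc34a2 a sodium and phosphate cotransporter, and Lpcat1 an acyltransferase that makes saturated phosphatidylcholine.

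The arrays carried 1 colour, so each array gave a fluorescence intensity per probe. The values below are log2 signals, each array scaled to its 75th percentile, and they compare arrays for a probe, not probes with each other. Between 66.0% and 75.5% of probes exceeded background clearly on a given array, and the number of arrays limits the precision. The arrays lay on 2 slides. Slide 2 held the 3 CS+LPS arrays and Control replicate 3, and slide 1 the other 8, so that a difference between CS+LPS and either treated group is also a difference between slides. Control replicate 3 stood apart, with a Pearson correlation of 0.936 to 0.956 with the other arrays against at least 0.975 among those, and its 75th percentile was the lowest (856 before scaling, against 1430 to 2222 in the other 11). The labels number the replicates without naming animals, so p-values measure the spread between these arrays. Where groups are described as not overlapping, the share of all tested probes that did the same was not counted. Such a separation only describes the values.

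The type 2 cell genes split in Control replicate 3. Relative to the mean of Control replicates 1 and 2, Sftpa1 was lower there by 1.21 on the log2 scale (a difference of -1.21), Slc34a2 differed by -1.18, Lpcat1 by -1.15, Napsa by -0.76 and Lamp3 by -0.49. In the same array Sftpc differed by 0.82, Sftpd by 0.41 and Sftpb by 0.37. For Sftpa1, Slc34a2, Lpcat1, Napsa and Lamp3 it was the lowest of all 12 arrays, and for Sftpb and Sftpc the highest. Differences against Control that moved most are therefore given with and without that array.

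Markers of heart muscle and fat were also high in that array. The mean centred log2 signal of 5 heart muscle markers was 2.66 in Control replicate 3 against -3.78 and -3.89 in the other Control arrays, and that of 4 fat markers was 2.57 against -1.06 and -1.05. The part of such tissue in the values of that array was not tested.

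Upstream sequence is shown for 4 genes, because the 3 with a match to the NKX2-1 letters can be set beside Lamp3, the gene whose signal passed the test. NKX2-1, FOXA, C/EBP and KLF proteins are transcription factors of lung epithelium, and several of them were measured on the same arrays. RefSeq promoter windows (assembly GRCr8) were found for 6 of the 9 genes. The 250 bases before the annotated start are printed 5′ to 3′ on the strand of the gene, with capitals on matches to the NKX2-1 letters (GCNCTNNAG) or the FOXA letters (TGTTTGC or TGTTTAC) on either strand.
Sftpb, chr4:105917338-105917587, plus strand: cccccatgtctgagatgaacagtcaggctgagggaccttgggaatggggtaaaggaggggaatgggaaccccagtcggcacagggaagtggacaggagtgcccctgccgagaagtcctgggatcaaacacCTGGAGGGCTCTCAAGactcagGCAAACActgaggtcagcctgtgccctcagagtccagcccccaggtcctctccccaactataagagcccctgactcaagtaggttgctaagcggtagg
Sftpa1, chr16:17042014-17042263, plus strand: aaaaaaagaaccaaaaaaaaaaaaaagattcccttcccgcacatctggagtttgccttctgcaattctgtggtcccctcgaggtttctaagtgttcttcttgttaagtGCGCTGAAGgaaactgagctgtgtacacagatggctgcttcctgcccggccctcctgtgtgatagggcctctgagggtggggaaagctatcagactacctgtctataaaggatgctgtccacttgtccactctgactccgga
Slc34a2, chr14:62143073-62143322, minus strand: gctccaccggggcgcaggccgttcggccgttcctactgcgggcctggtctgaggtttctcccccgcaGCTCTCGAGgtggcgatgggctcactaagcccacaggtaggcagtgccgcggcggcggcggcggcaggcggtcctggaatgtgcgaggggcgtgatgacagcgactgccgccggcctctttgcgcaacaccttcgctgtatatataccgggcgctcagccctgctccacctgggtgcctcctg
Lamp3, chr11:94697772-94698021, plus strand: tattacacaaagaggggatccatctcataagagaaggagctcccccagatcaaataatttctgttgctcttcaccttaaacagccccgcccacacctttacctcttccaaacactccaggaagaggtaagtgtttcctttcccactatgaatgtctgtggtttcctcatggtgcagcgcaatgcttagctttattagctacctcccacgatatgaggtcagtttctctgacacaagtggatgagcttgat
The NKX2-1 letters were found in 3 of the 6 windows (Sftpb, Sftpa1 and Slc34a2), whereas 13.7% of 33469 promoter windows of this length held them. Sftpb had 2 places, which began 120 and 113 bases before the start and overlapped each other, and 1 FOXA match that began 98 bases before it. FOXA letters were in 7.2% of all windows. The C/EBP letters (TTNNGNAA), present in 37.2% of all windows, were found in Sftpa1, Lamp3 and Slc34a2. The KLF letters (CCACCC), present in 26.1% of all windows, were found in Sftpa1 and, at 2 places, in Lpcat1. The Abca3 window held none of the 4 motifs. A match describes letters in this window and is not a measured binding site.

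The comparison of CS+LPS with Control asked what the exposure did to these genes. Of the 8 genes, 1 passed the test (an adjusted p under 0.05 over 21239 tested probes, limma with Benjamini-Hochberg adjustment), against 2.02% of all tested probes. It was Lamp3, which rose. The differences of the other 7 ran from -0.45 for Sftpc to 0.63 for Lpcat1, and 4 of the 8 were above 0 and 4 below. The median of the 8 differences was 0.05, and the median over all tested probes was -0.04. By the study's rule for differentially expressed (DE) genes, a fold change of at least 2 with an unadjusted p under 0.05, 0 of the 8 genes passed, against 4.56% of all probes. In lung tissue, fewer cells of a type and less RNA per cell cannot be told apart.

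Lamp3, also called DC-LAMP, had log2 signals of 13.63, 13.50 and 13.07 in the Control arrays. In the CS+LPS arrays they were 14.24, 14.20 and 14.19. They were 14.26, 14.00 and 14.09 with NaHS, and 14.51, 14.29 and 14.82 with PPG. All 9 exposed arrays were above all 3 Control arrays, and the CS+LPS arrays lay close together (14.21 ± 0.03, SD, n = 3) against 13.40 ± 0.29 in Control. Lamp3 rose by 0.81 (SE 0.17, 95% interval 0.42 to 1.19, 1.75-fold, adjusted p = 0.0450 by limma) between Control and CS+LPS. It rose by 1.14 (SE 0.17, interval 0.75 to 1.52, 2.20-fold, limma adjusted p = 0.0206) between Control and CS+LPS+PPG, where it also met the DE rule. With NaHS the difference was 0.71 (interval 0.33 to 1.10, limma adjusted p = 0.140).

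The CS+LPS call for Lamp3 lay close to the threshold. Without Control replicate 3 the difference was 0.65 (limma adjusted p = 0.0736), and the call was kept without Control replicate 1 or 2 and lost without any other single array, with a limma adjusted p of at most 0.141. The PPG call was lost without CS+LPS+PPG replicate 1, 2 or 3 (limma adjusted p of 0.0675, 0.0517 and 0.0732), and kept without each of the other 9. Within slide 1, Lamp3 was 0.97 higher with PPG (limma adjusted p = 0.0271) and 0.55 higher with NaHS (0.182) than in Control replicates 1 and 2. Within slide 2, CS+LPS was 1.14 above Control replicate 3, the only control there and the lowest of all arrays for this gene. Over 27 alternative settings the difference was above 0 in each, but those that change only the filter, the test or arrays of other groups could not alter it. Lamp3 passed in 11 of the settings with CS+LPS and in 20 with PPG. The 11 include the fit within slide 2 and the fit with slide as a block, both of which rest on Control replicate 3. The difference lay between 0.65 and 1.34 for CS+LPS and between 0.97 and 1.48 for PPG.

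**Figure D1:**
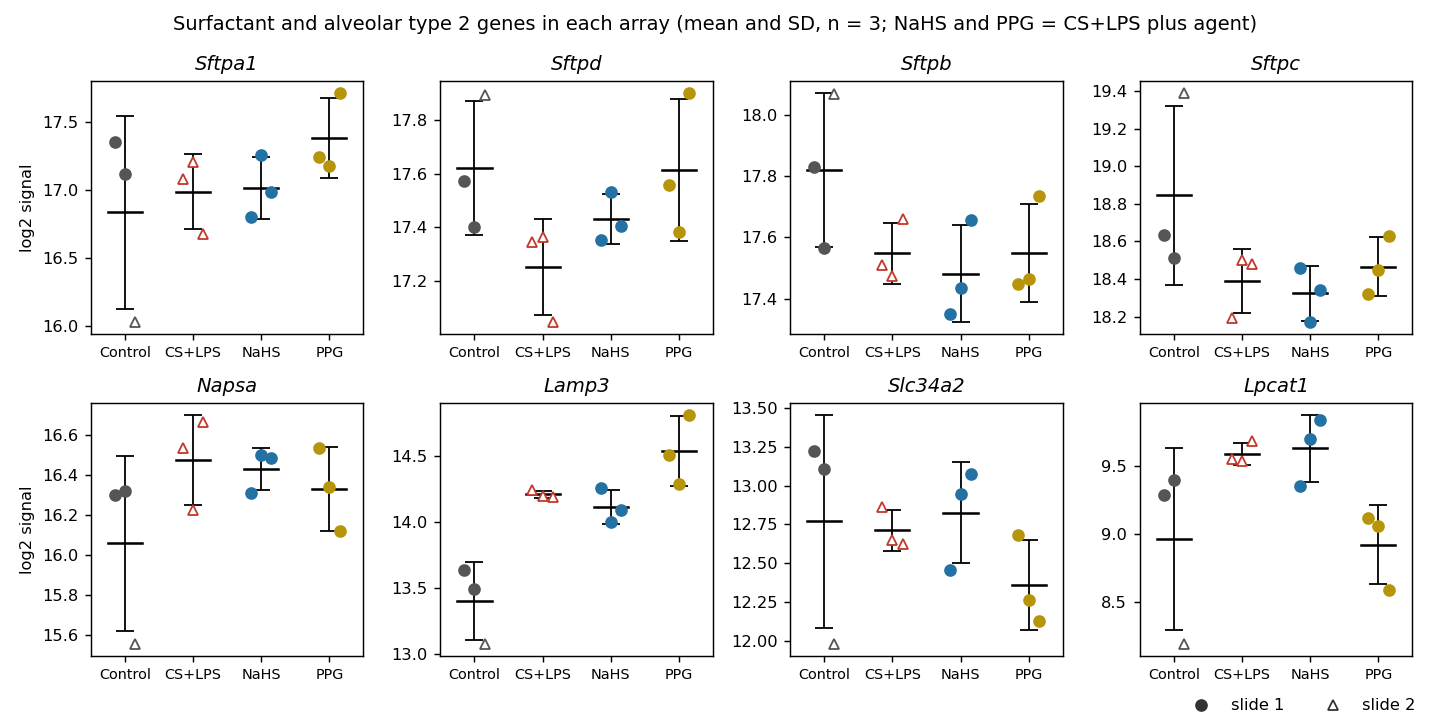
Log2 signal (vertical axis, each array scaled to its 75th percentile) of the 8 genes in the 4 groups (horizontal axis, NaHS and PPG standing for CS+LPS plus the agent), with 1 point per array, circles for slide 1, open triangles for slide 2, and bars for the mean and SD of 3 arrays. All 9 exposed arrays lie above the Control arrays for Lamp3, and Control replicate 3, the triangle in the Control column, is the lowest array for 5 genes and the highest for Sftpb and Sftpc.

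Lamp3 is known also from mature dendritic cells, so 10 genes of those cells were looked at after the values of Lamp3 had been seen. Of the 10, 9 were detected, and the median difference from Control was 0.45 with CS+LPS, 0.21 with NaHS and 0.23 with PPG. Cd83, a surface protein of mature dendritic cells, rose by 0.75 with CS+LPS (limma adjusted p = 0.0327) and by 0.98 with PPG (limma adjusted p = 0.0206). It was the only one of the 9 called, against 2.02% of all tested probes with CS+LPS and 4.64% with PPG. Ccr7, the receptor that guides these cells to lymph nodes, differed by 0.45, 0.48 and 0.05 with CS+LPS, NaHS and PPG. In the same order Il12b differed by -0.83, -0.52 and 0.12, and Fscn1 by 0.35, -0.01 and 0.00. The summed signal of the 9 genes was 9954 to 13840 (Control), 14690 to 17880 (CS+LPS), 11190 to 16860 (NaHS) and 11650 to 22650 (PPG). The part of these cells in the signal of Lamp3 was not tested.

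The collectin genes did not pass the test in any comparison, unless slide entered the fit. Sftpa1 had log2 signals of 17.35, 17.12 and 16.03 in Control, 17.08, 17.20 and 16.67 in CS+LPS, 16.80, 17.26 and 16.99 with NaHS, and 17.24, 17.18 and 17.72 with PPG. The 4 groups overlapped, and the low Control array set the width of that group (16.83 ± 0.71, SD, n = 3). Its difference from Control was 0.15 with CS+LPS and 0.55 with PPG (interval -0.14 to 1.24, limma adjusted p = 0.264), and without Control replicate 3 these were -0.25 and 0.14. Sftpd had 17.57, 17.40 and 17.89 in Control, 17.35, 17.36 and 17.05 in CS+LPS, 17.35, 17.53 and 17.41 with NaHS, and 17.56, 17.38 and 17.90 with PPG. All 3 CS+LPS arrays were below all Control and all PPG arrays for Sftpd. The difference of CS+LPS from Control was -0.37 (interval -0.76 to 0.02, limma adjusted p = 0.211), and without Control replicate 3 it was -0.23. Over the 11 arrays without Control replicate 3, Sftpa1 and Sftpd had the highest correlation of any of the 28 pairs (Pearson's r = 0.93, as a description over arrays that share their scaling), whereas with it r was 0.07.

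The genes of the hydrophobic proteins did not pass in any comparison either, unless slide entered the fit. Sftpb had log2 signals of 17.83, 17.56 and 18.07 in Control, 17.51, 17.47 and 17.66 in CS+LPS, 17.35, 17.44 and 17.66 with NaHS, and 17.45, 17.46 and 17.73 with PPG. The groups overlapped. Its differences from Control were -0.27, -0.34 and -0.27 in that order (limma adjusted p of 0.286, 0.299 and 0.268), and -0.15, -0.22 and -0.15 without Control replicate 3. Sftpc had 18.63, 18.51 and 19.39 in Control, 18.19, 18.50 and 18.48 in CS+LPS, 18.46, 18.17 and 18.34 with NaHS, and 18.32, 18.45 and 18.63 with PPG. The CS+LPS and NaHS arrays of Sftpc were all below the Control arrays, in the first case by a margin of 0.01 between 18.50 and 18.51. The differences were -0.45, -0.52 and -0.38 (limma adjusted p of 0.213, 0.262 and 0.261), and without Control replicate 3 they were -0.18, -0.25 and -0.11.

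Napsa and Lpcat1 lay higher in CS+LPS than in Control without passing the test. Napsa had log2 signals of 16.30, 16.32 and 15.55 in Control, 16.54, 16.23 and 16.67 in CS+LPS, 16.31, 16.50 and 16.48 with NaHS, and 16.54, 16.34 and 16.12 with PPG. Its differences from Control were 0.42, 0.37 and 0.27, and 0.17, 0.12 and 0.02 without Control replicate 3. Lpcat1 had 9.29, 9.40 and 8.19 in Control, 9.55, 9.53 and 9.68 in CS+LPS, 9.35, 9.69 and 9.83 with NaHS, and 9.12, 9.05 and 8.59 with PPG. The CS+LPS arrays were above all Control arrays, and the PPG arrays below all CS+LPS and NaHS arrays. Its difference from Control was 0.63 with CS+LPS (interval -0.01 to 1.27, limma adjusted p = 0.202) and 0.67 with NaHS (interval from 0.03 upward, limma adjusted p = 0.273), but -0.04 with PPG. Without Control replicate 3 these were 0.25, 0.28 and -0.42.

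Slc34a2 had log2 signals of 13.22, 13.11 and 11.98 in Control, 12.86, 12.65 and 12.62 in CS+LPS, 12.46, 12.95 and 13.07 with NaHS, and 12.68, 12.27 and 12.13 with PPG. All 4 groups overlapped, since the low Control array lay below every other array. The difference of PPG from Control was -0.41 (interval -1.08 to 0.26, limma adjusted p = 0.387) with all arrays and -0.80 (limma adjusted p = 0.0642) without Control replicate 3. That of CS+LPS was -0.06 with all arrays and -0.45 without that one, and that of NaHS turned from 0.06 to -0.34. Slc34a2 and Lamp3 had Pearson's r = -0.83 over those 11 arrays and -0.15 over 12.

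Against Control, the groups that received an agent gave the following counts. With NaHS, 0 of the 8 genes passed the adjusted threshold, against 0.0989% of all tested probes, and 0 met the DE rule, against 2.67%. At an unadjusted p under 0.05 by limma there were 3 (Lamp3, Sftpc and Lpcat1), beside 3638 of all 21239 tested probes, and by the methods' t-test 1 before and 0 after adjustment. The median of the 8 differences was 0.12, and without Control replicate 3 it was -0.14. With PPG, 1 of the 8 genes passed (Lamp3, higher), against 4.64% of all tested probes, and the same gene met the DE rule, against 4.38%. The 3 comparisons share the Control arrays, so their likeness is not independent.

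The comparisons of NaHS and of PPG with CS+LPS asked what each agent changed in exposed lungs. Neither moved any of the 8 genes past the threshold. For NaHS the 8 differences ran from -0.09 (Lamp3) to 0.18 (Sftpd), the narrowest range of the 6 comparisons, with 0 genes at an unadjusted p under 0.05 by limma or by the methods' t-test. The background was 0.593% of probes by adjusted p and 1.7% by the DE rule, and 2054 of all 21239 tested probes had an unadjusted p under 0.05 by limma. The 95% intervals still reached from -0.66 to 0.72 for Sftpa1 and from -0.48 to 0.29 for Lamp3. For PPG the differences ran from -0.67 (Lpcat1) to 0.39 (Sftpa1), with a background of 0.523% by adjusted p and 2.05% by the DE rule. Lpcat1 was the only one at an unadjusted p under 0.05 by limma (upper end of the interval -0.03, adjusted p = 0.452), beside 2232 of all 21239 tested probes. By the methods' t-test there was 1 gene at an unadjusted p under 0.05. All PPG arrays were above all CS+LPS arrays for Lamp3 (0.33, interval -0.06 to 0.71, limma adjusted p = 0.555) and for Sftpd (0.36, interval -0.02 to 0.75, limma adjusted p = 0.512). In both comparisons agent and slide cannot be told apart.

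With slide as a block, a fit in which Control replicate 3 alone ties slide 2 to the other Control arrays, the calls were different. All 8 genes then passed between CS+LPS and Control, Sftpc (limma adjusted p = 0.00281), Sftpb (-0.52, 0.0473) and Sftpd (-0.64, 0.0359) below Control and the other 5 above it. For NaHS against CS+LPS 4 genes passed, Sftpc above (0.75) and Sftpa1 (-1.18), Slc34a2 (-1.07) and Lpcat1 (limma adjusted p = 0.0270) below. For PPG against CS+LPS 4 passed, Sftpc above (0.90) and Napsa (-0.90), Slc34a2 (-1.54) and Lpcat1 (-1.82) below. Of all 21239 tested probes, the same fit called 8830 for CS+LPS against Control. It called 4890 for NaHS and 4793 for PPG against CS+LPS. In the comparisons of NaHS and PPG with Control this block gave the same differences as leaving out Control replicate 3.

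The 2 treated groups shared slide 1, and setting NaHS against PPG, a comparison outside the study's design, gave values free of the slide. None of the 8 genes passed, and of all tested probes 0% passed by adjusted p and 0.523% by the DE rule. Over all tested probes 1857 had an unadjusted p under 0.05 by limma. Lpcat1 was higher with NaHS by 0.71 (interval 0.07 to 1.34) and Lamp3 lower, with a difference of -0.42 (interval -0.81 to -0.04), both with a limma adjusted p of 0.563. The 3 NaHS arrays did not overlap the 3 PPG arrays for either gene, and the share of all tested probes without overlap was not counted. By the methods' t-test 1 of the 8 genes had an unadjusted p under 0.05 and 0 after adjustment. Slc34a2 differed by 0.46 and Sftpa1 by -0.37, with groups that overlapped.

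**Figure D2:**
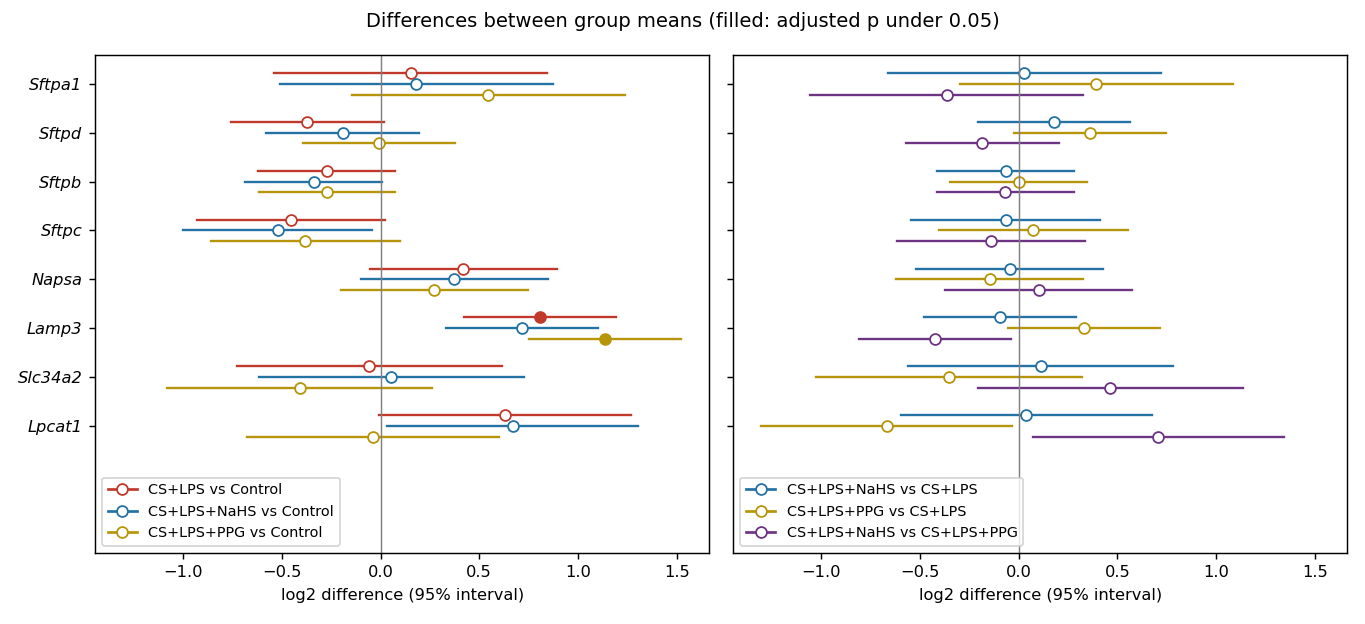
Difference of group means on the log2 scale (horizontal axis) for each of the 8 genes (vertical axis), as a point with its 95% interval from limma, against Control on the left and among the exposed groups on the right, filled where the adjusted p was under 0.05. The filled points are those of Lamp3 with CS+LPS (0.81) and with PPG (1.14).

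The brightest of these probes, that of Sftpc, hardly followed the brightness of the arrays. Very bright spots had been read from a second scan at lower gain and scaled up by the scanner software, which held for all 24 spots of each of Sftpa1, Sftpb, Sftpc, Sftpd and Napsa, for 51 of 120 spots of Lamp3, and for 0 of 24 of Slc34a2 and Lpcat1. No spot was saturated. The unscaled signal of Sftpc, rank 3 in brightness among 30367 probes, ran only from 334600 to 423800 over the 12 arrays (a ratio of 1.27), although the 75th percentile of the arrays varied by a ratio of 2.60. On log2 axes the slope of unscaled signal on 75th percentile was 0.06 for Sftpc, 0.54 for Sftpb and 0.56 for Sftpd. It was 1.73 for Sftpa1, 1.86 for Lamp3, 1.78 for Napsa, 1.69 for Slc34a2 and 2.19 for Lpcat1. Over tested probes the median slope was 0.32 for the 10 brightest, 0.64 for ranks 11 to 50, 0.82 for ranks 51 to 200 and 0.96 for all.

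The size of the Sftpc differences also depended on the scaling. Its difference of CS+LPS from Control was -0.45 with the 75th percentile, -0.07 with quantile normalization, -0.58 with cyclic loess and 0.08 with no scaling. For Sftpb these values were -0.27, -0.08, -0.40 and 0.26, so that the direction of both genes turned without scaling. Lamp3 gave 0.81, 0.75, 0.70 and 1.34 and kept its direction. Leaving out the scaling moved the differences of these 3 genes by the same amount, so the turned and the kept signs both follow from that common shift. Without any scaling the median of all tested probes itself lay 0.49 above 0 in this comparison. Leaving out Control replicate 3, the slopes were 0.25 for Sftpc, 0.73 for Sftpb, 0.54 for Sftpa1 and 1.14 for Lamp3.

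**Figure D3:**
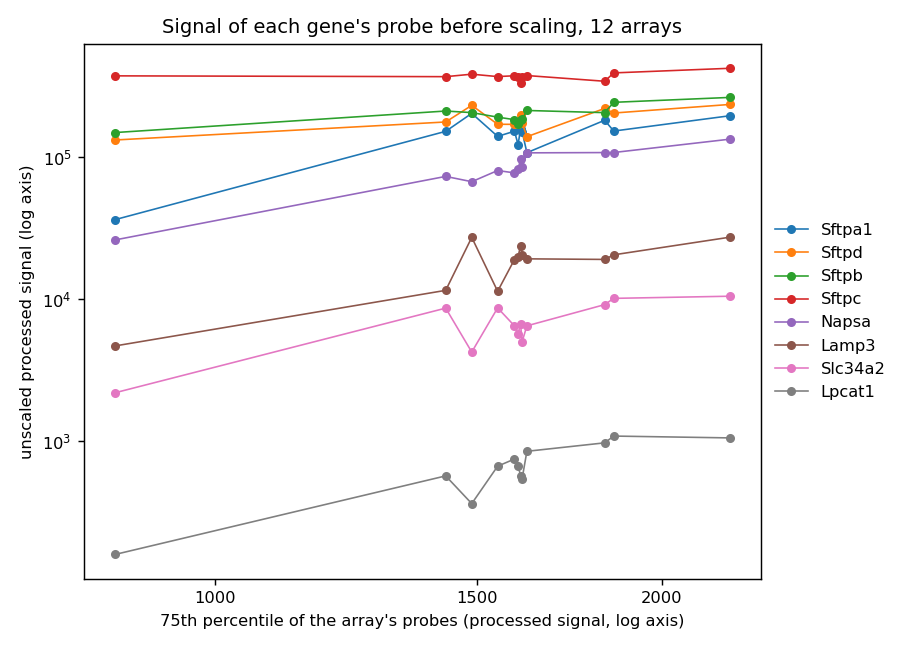
Unscaled processed signal of each gene's probe (vertical axis, log scale) against the 75th percentile of the same array (horizontal axis, log scale), with 12 points per gene, 1 for each array. The line of Sftpc stays nearly flat between 334600 and 423800 while the percentile runs from 856 to 2222, and the lines of Lpcat1 and Napsa climb with it.

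Other genes of the type 2 cell were taken from 5 lists. Of the 19 other type 2 cell genes, 17 were detected and 0 passed in any of the 6 comparisons, with 3, 3 and 5 at an unadjusted p under 0.05 by limma against Control for CS+LPS, NaHS and PPG, and 0, 2 and 3 by the methods' t-test. Of all 21239 tested probes, 5360, 3638 and 6229 had such a p. The median difference was 0.32 with CS+LPS and with NaHS, and 0.10 with PPG. The widest differences were those of Chi3l1, a chitinase-like lectin, with CS+LPS (0.97, limma adjusted p = 0.155) and NaHS (0.85), and of S100g, a calcium-binding protein, with PPG (15.94 against 14.44 in Control, limma adjusted p = 0.222). S100g varied widely within groups, from 12.75 to 15.94 with NaHS. Against CS+LPS the widest were Acoxl, an acyl-CoA oxidase-like gene, with NaHS (0.74, limma adjusted p = 0.143) and Egfl6, an EGF-like matrix protein, with PPG (-0.70, limma adjusted p = 0.471). Between NaHS and PPG it was S100g (-1.17).

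Of the 21 genes of surfactant lipid synthesis, 18 were detected, and 1 rose in 2 comparisons. Fabp5, a fatty acid binding protein of type 2 cells that is also abundant in macrophages, had log2 signals of 14.54, 14.95 and 13.54 in Control and 15.85 to 16.01 in CS+LPS. It was 15.58 to 15.97 with NaHS and at most 16.08 with PPG, and all 9 exposed arrays lay above Control. It rose by 1.57 with CS+LPS (limma adjusted p = 0.0289) and 1.70 with PPG (limma adjusted p = 0.0211), and the difference with NaHS was 1.43 (limma adjusted p = 0.106). Without Control replicate 3 the difference was 1.17 with CS+LPS (limma adjusted p = 0.0118) and 1.03 with NaHS (0.0575), and PPG kept its call (0.00904). Of 26 alternatives, 17 kept the call with CS+LPS and 20 that with PPG. The median of the list was 0.04, -0.04 and -0.03 in the order CS+LPS, NaHS and PPG. The enzymes of phosphatidylcholine synthesis in it (Chka, Chkb, Pcyt1a, Pcyt1b and Cept1) did not pass, and Chka, which starts that pathway, showed the widest difference from CS+LPS with both NaHS (-0.47) and PPG (-0.42). Between NaHS and PPG the widest was Scd, a fatty acid desaturase (-0.65).

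Of the 19 genes of surfactant transport and clearance, 17 were detected. Pparg, a nuclear receptor that alveolar macrophages need to clear surfactant lipid, rose by 0.73 with CS+LPS (limma adjusted p = 0.0448) and by 0.92 with PPG (limma adjusted p = 0.0211). Its log2 signal was 11.94, 11.50 and 11.81 in Control, 12.37 to 12.66 (CS+LPS), 12.07 to 12.32 (NaHS) and 12.52 to 12.83 (PPG). The CS+LPS call was kept in 6 of 26 alternatives and the PPG call in 19. That of CS+LPS was lost, for example, without Control replicate 3 (0.76, limma adjusted p = 0.0598), without Control replicate 2 (0.61, limma adjusted p = 0.0523) and under quantile normalization (0.69, limma adjusted p = 0.0611). Spi1, the myeloid factor PU.1, showed the widest difference in the list with CS+LPS (1.12, limma adjusted p = 0.0746) and NaHS (1.04, limma adjusted p = 0.159). Against CS+LPS the widest were Hps1, a gene of lysosome-related organelles, with NaHS (0.33) and Prdx6, a peroxiredoxin with phospholipase activity, with PPG (0.42). The medians of the list were 0.21, 0.25 and 0.22 against Control.

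Of the 16 lung epithelial transcription factors, 14 were detected. In each comparison with Control 11 of these had a difference below 0, though not the same genes throughout, since Foxa1 was above 0 with NaHS (0.14) and Elf5 with CS+LPS (0.01) and PPG (0.09). The median of the list was -0.50 with CS+LPS, -0.42 with NaHS and -0.43 with PPG, against -0.04, 0.00 and -0.01 over all tested probes. These medians are given with all arrays only, and some of the factors varied widely within Control. Klf5, a zinc finger factor of lung epithelium, fell in all 3. Its log2 signal was 11.24, 11.27 and 11.59 in Control, 10.49 to 10.75 (CS+LPS), 10.42 to 10.56 (NaHS) and 10.26 to 10.35 (PPG), and no exposed array reached the Control range. It fell by 0.75, 0.89 and 1.05 (limma adjusted p of 0.0265, 0.0366 and 0.0120), and without Control replicate 3 by 0.64, 0.78 and 0.94 (0.0310, 0.0523 and 0.00998). Of 26 alternatives, 17 kept the call with CS+LPS, 6 that with NaHS and 21 that with PPG. A second probe of Klf5 gave -0.18, -0.18 and -0.67 and was not called. Nkx2-1, the factor that defines lung epithelium, differed by -0.22, -0.35 and -0.73 (limma adjusted p of 0.519, 0.416 and 0.0730). Its log2 signal was 13.39 to 14.06 in Control, 13.11 to 13.73 (CS+LPS), 13.09 to 13.42 (NaHS) and 12.72 to 13.10 (PPG). Foxa2, a forkhead factor, differed by -0.60, -0.79 and -0.69 without a call. Sox2, a factor of airway epithelium, had the widest difference with CS+LPS (limma adjusted p = 0.135, below Control) and, against CS+LPS, with PPG (0.55). Its log2 signal was 10.77 to 12.25 in Control, 9.80 to 10.71 (CS+LPS), 10.58 to 10.89 (NaHS) and 10.60 to 11.10 (PPG). Foxa1 had the widest between NaHS and CS+LPS (0.66) and between NaHS and PPG (0.46).

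Of the 12 genes of injured or transitional alveolar epithelium, 11 were detected, and Lcn2, an iron-withholding protein made by epithelium and neutrophils, rose in every exposed group. Its log2 signal was 12.33, 12.21 and 12.43 in Control, 13.44 to 13.90 (CS+LPS), 13.70 to 13.87 (NaHS) and 13.71 to 14.52 (PPG). The differences were 1.42, 1.48 and 1.77 (limma adjusted p of 0.0144, 0.0360 and 0.00712), and without Control replicate 3 they were 1.47, 1.53 and 1.82 (0.0186, 0.0523 and 0.0104). Of 26 alternatives, 23, 10 and 24 kept these calls. The keratins that mark transitional cells did not follow. Krt8 differed from Control by -0.27, -0.13 and 0.10 and Krt18 by -0.41, -0.48 and -0.30, and the medians of the list were -0.25, -0.13 and -0.20. Ereg, an EGF receptor ligand, showed the widest difference from CS+LPS with NaHS (-0.64) and with PPG (-0.84), and Itgb6, an epithelial integrin, the widest between NaHS and PPG (0.67). In the 3 comparisons without Control, 0 genes of the 5 lists passed.

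**Figure D4:**
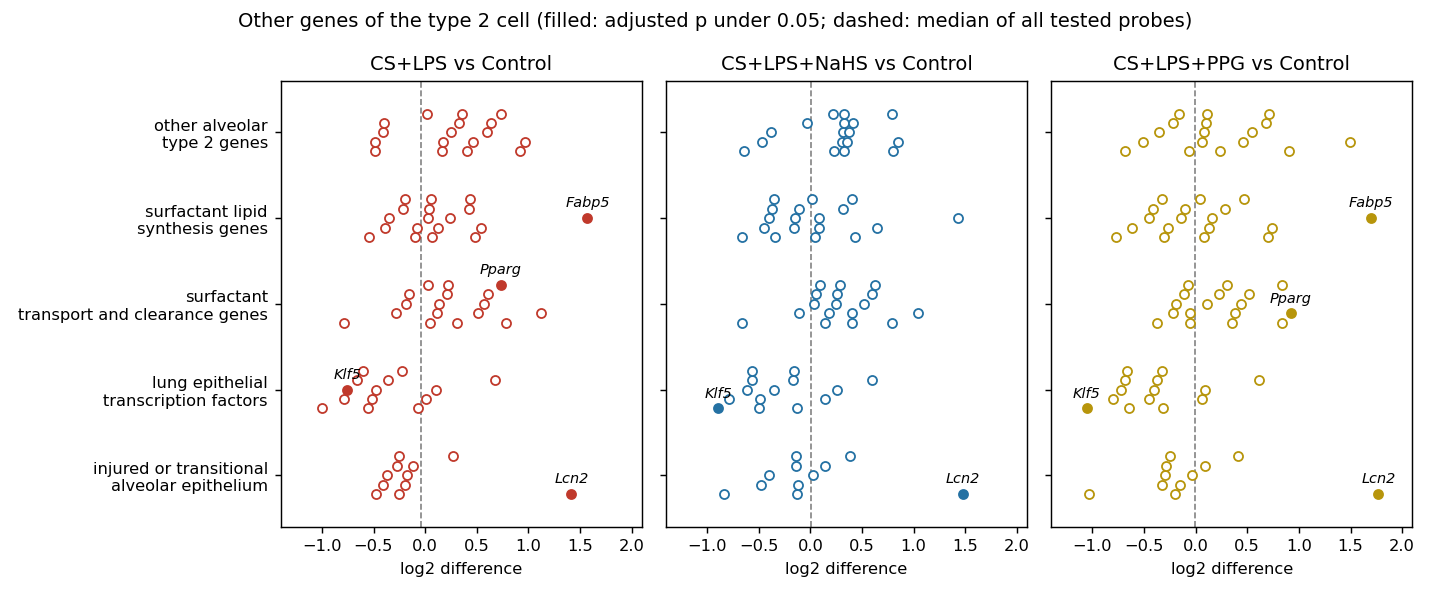
Difference from Control on the log2 scale (horizontal axis) of each detected gene of the 5 lists (vertical axis, points spread for sight) in the 3 exposed groups, filled and named where the adjusted p was under 0.05, with the median of all tested probes as a dashed line. Fabp5 and Pparg are filled for CS+LPS and PPG, Klf5 and Lcn2 in all 3 panels, and most transcription factors lie left of the line.

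Markers of immune cells moved with these genes. Of 7 macrophage markers 5 were detected (Marco and Msr1 were not), and their summed signal was 5007 to 9343 (Control), 14800 to 21560 (CS+LPS), 14640 to 18450 (NaHS) and 13920 to 17390 (PPG). The sum was above the Control range in all 9 exposed arrays. In mean centred log2 signal, which weights the 5 genes equally, Control had -0.29, -0.09 and -0.99, the last in replicate 3. All CS+LPS and PPG arrays lay above these values, but CS+LPS+NaHS replicate 3 (-0.11) lay below Control replicate 2. Cd68 was called with CS+LPS and with PPG, and Siglec1 with CS+LPS, and the other macrophage markers detected were not called. Of 7 neutrophil markers 6 were detected (Mpo was not), with sums of 7308 to 18670, 15480 to 32570, 16070 to 32190 and 24640 to 34830, and Fcnb was called with CS+LPS and PPG. Fabp5, Pparg, Spi1 and Lcn2 are all known from macrophages or neutrophils, and the part of those cells in their signals was not tested. The summed signal of the 8 type 2 cell genes was 986000 to 1334000 (Control), 914600 to 974900 (CS+LPS), 916300 to 960700 (NaHS) and 966100 to 1189000 (PPG). That sum is carried by the brightest probes. The mean centred log2 signal, which weights the 8 genes equally, was lowest in Control instead (-0.08, against 0.02, 0.03 and 0.02). That low mean rests on Control replicate 3 (-0.35), since Control replicates 1 and 2 had 0.11 and -0.01. Markers of other tissues varied between arrays. The heart muscle markers, 5 of 6 detected, summed to 6352 to 91830, 12830 to 53520, 10280 to 56160 and 41650 to 72020 in the same order, and the fat markers, 4 of 6 detected, to 3526 to 11540, 4111 to 6240, 4598 to 7258 and 8219 to 12020. Both sums overlapped between Control and PPG. In mean centred log2 signal of the fat markers, only Control replicate 3 (2.57) reached the range of the PPG arrays. For heart muscle, Control replicate 3 (2.66), CS+LPS replicate 1 (1.90) and CS+LPS+NaHS replicate 2 (1.95) reached it. The PPG arrays had 2.32, 1.57 and 2.18 for heart muscle, against -3.78 and -3.89 in Control replicates 1 and 2. For fat they had 2.23, 0.70 and 1.91, against -1.06 and -1.05. The pancreas markers, 3 of 7 detected, summed to 1468 to 1803, 1634 to 1982, 2634 to 3992 and 1674 to 3150, so that NaHS lay wholly above Control and CS+LPS. Of these 3, Ctrb1 was called higher with NaHS against CS+LPS, beside 0.593% of all tested probes. Agent and slide cannot be told apart there. The part of these tissues in the values of any group was not tested. The alveolar type 1 markers, 9 of 10 detected, summed to 496300 to 611000, 485100 to 548400, 500700 to 543200 and 448300 to 531400.

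The 8 genes did not share a pattern over the arrays. Over 12 arrays the pairwise Pearson's r ran from -0.91 for Sftpc and Napsa to 0.84 for Napsa and Lpcat1. Among 11134 other named genes, those most like the mean centred profile of the 8 were Ddx19b (r = 0.94), Cd14 (0.91), Fam83d (0.91), Baalc (0.90) and Stard10 (0.90), and the least like were Fdxr (-0.95), Kng2l1 (-0.93) and Pitx3 (-0.92). Cd14 encodes the LPS co-receptor and Stard10 a phospholipid transfer protein. Without Control replicate 3 these r values were 0.69, 0.62, 0.58, 0.67 and 0.42 for the first 5, and the 5 most like genes were then others, led by Jakmip3 (0.84) and Elf3 (0.81). With quantile normalization they were others again, led by Lasp1 (0.95). These r values are descriptions over arrays that share their scaling.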

How the data were processed

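RNA of 12 rat lung samples was labelled with Cy3 and hybridized to single-colour Agilent rat arrays. The authors scanned the arrays with Feature Extraction 10.7.3.1 and deposited each spot's processed signal, a linear intensity after background subtraction, together with 5 lists of DE probes made in GeneSpring, which hold their fold changes, p-values and 60 columns of values per array and were not used here. Outlier spots were left out, log2 signals of the spots of a probe were averaged, and each array was centred on its 75th percentile. Probes clearly over background throughout the 3 arrays of any group (21239 of 30367) were tested with limma 3.58.1 in R 4.3.3, with all 12 arrays in the fit, and p-values were adjusted by Benjamini-Hochberg over these probes (two-sided). The fit was tested on simulated data. Groups came from the sample labels and slides from the file headers. Symbols came from RefSeq (GRCr8, names only), which matched 17514 probes. With 3 arrays against 3, no exact permutation test of a single gene can give a p below 0.1. The 9 genes and the 5 lists were chosen with earlier results of these data known. Named besides the 9 were list genes called in a comparison, the widest difference of each list and comparison, and the 5 most and 3 least like genes. Foxa2, Nkx2-1, Krt8, Krt18, Pcyt1a, Pcyt1b, Cept1 and the dendritic cell genes were named after their values were seen. Alternatives were other normalizations, filters, blocks and tests, and each array left out. The normexp alternative (offset 50) used the median signal.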

Additional observations from a re-analysis of the deposited data

How the results depend on the processing

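Of the 8 genes, those passing with CS+LPS against Control numbered 1, but 0 with quantile normalization, with a filter of at least 1 array, with no filter, with the replicate number as a block, with only the groups compared and by the methods' t-test. They numbered 8 with slide as a block, beside 8830 of all 21239 tested probes. With PPG against Control, 1 became 0 with the replicate block, with only the groups compared, by the methods' t-test and with no scaling (chosen, like cyclic loess, after seeing the data). Replicate numbers did not pair arrays, since same-numbered arrays deviated with r of -0.31 to 0.14, and the block took all probes called with PPG from 986 to 32.

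Slide as a block rests on Control replicate 3. With it, differences that had not passed came to pass with the opposite sign for Slc34a2 (CS+LPS against Control, 0.73) and, for NaHS against CS+LPS, for Sftpa1 (-1.18), Sftpc (0.75), Slc34a2 (-1.07) and Lpcat1 (-1.11). In that fit 4 of the 8 genes passed for NaHS and 4 for PPG against CS+LPS, beside 4890 and 4793 of all 21239 tested probes. The medians of the 8 genes became -0.69 and -0.49. The median against Control was 0.83 for CS+LPS with slide as a block or within slide 2, and -0.14 for NaHS with slide as a block or within slide 1. With no scaling the medians against Control were 0.58, 0.62 and 0.32 (CS+LPS, NaHS, PPG), and with cyclic loess that of NaHS against PPG was 0.16. The causes were not tested.

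Leaving out single arrays, the genes passing ranged from 0 to 1 with CS+LPS and with PPG against Control, and the medians from -0.17 to 0.29 with CS+LPS and from -0.14 to 0.36 with NaHS. Over all tested probes, calls with CS+LPS against Control numbered 428, but 205 with quantile normalization, 880 with normexp, 116 with no filter, 8830 with slide as a block, 1 by the methods' t-test, and 29 (without CS+LPS replicate 3) to 1296 (without Control replicate 2) with single arrays left out. With PPG against Control 986 calls became 12 without CS+LPS+PPG replicate 1. Of 1600 values recomputed under alternatives, 1500 kept their direction and side of the threshold or moved less than the spread between replicates. Among 1280 pairs of a gene's difference and an alternative, 73 had the opposite sign to a difference that had not passed. Alternatives that change only the filter, the test or arrays of other groups cannot alter the difference itself. The number of arrays, 3 a group, limits the precision.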

Other observations

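Airway and blood vessel cells were described by their own markers, 6 of 7 detected for airway secretory cells (Muc5b was not) and 5 of 7 for endothelium (Vwf and Egfl7 were not). The summed signal of the airway secretory markers was 299100 to 643400 (Control), 254900 to 298500 (CS+LPS), 259900 to 314600 (NaHS) and 265800 to 384800 (PPG). The mean centred log2 signal, which weights the 6 genes equally, ran otherwise, at -0.53, -0.51, 0.04 and 1.00 in that order. Within Control it was -1.74, -0.96 and 1.10 in replicates 1, 2 and 3. Scgb3a1, a secretoglobin of airway cells, was called higher with PPG against Control. The endothelial sums were 120300 to 128100 (Control), 105800 to 119900 (CS+LPS), 108500 to 121200 (NaHS) and 98520 to 120000 (PPG). Their mean centred log2 signal was 0.03, -0.13, 0.20 and -0.11 in that order, highest with NaHS. Pecam1, an adhesion protein of the vessel wall, was called lower with PPG against Control, alone of the 5 detected. The median difference of the 5 in that comparison was 0.04. Ciliated cell markers, 4 of 6 detected, summed to 11820 to 38580 in Control, a range that held every exposed array. Their mean centred log2 signal was 1.31 in Control replicate 3, against -0.10 and -0.36 in Control replicates 1 and 2. Igfbp2, a marker of alveolar type 1 cells, was called lower with PPG, alone of the 9 detected.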
